A study of Mus musculus with 18 samples.

Results

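The genes described are 40 interferon response genes of the mouse, chosen by symbol as interferon-stimulated genes, interferon-induced chemokines and immunoproteasome subunits. They fall into 7 groups by role, which are transcription factors, RNA and nucleic acid sensors, the Isg15 pair, antiviral effectors, guanylate-binding GTPases, chemokines and the immunoproteasome with its activator. Each of the 40 symbols matched 1 gene of the 54752 in the count table. The study examined the loss of Cd276 in mouse ovarian cancer cells. Cd276 encodes B7-H3, a B7 family member on the cell surface. RNA was sequenced from 6 groups of 3 libraries. They were HM-1 cells in culture labelled Cd276KO and their controls, ID8 cells in culture labelled Cd276KO and their controls, and HM-1 tumors grown from cells labelled Cd276KO and from control cells. HM-1 is a mouse ovarian cancer line, and ID8 arose from ovarian surface epithelial cells of the mouse that were transformed in culture. The tumors grew in the skin of B6C3F1 mice that had received 1000000 HM-1 cells, and were taken on day 10. The labels do not give the way Cd276 was disrupted, the number of clones, the treatment of the control cells, or whether cultures and mice were separate, so p-values measure only the spread between these libraries, which may be technical. No interferon or other agent is named in the labels.

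Interferons are secreted proteins made by infected, stressed or activated cells. Type I interferons bind the receptor Ifnar1 and Ifnar2, whose kinases Jak1 and Tyk2 activate Stat2, which joins Irf9 in a complex that binds the interferon-stimulated response element (ISRE) of target genes. Interferon gamma binds Ifngr1 and Ifngr2 and acts through a different element (GAS), also in the gene for the transcription factor Irf1. Target genes encode sensors of foreign RNA, proteins that block viral replication, chemokines that attract lymphocytes, and proteasome subunits that shape peptides for presentation to T cells. Many are also held at a low level in unstimulated cells.

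The stretch of 250 bases before the start site is printed for 6 genes that carry an ISRE or GAS motif there, so that the letters stand beside the values given later. They come from RefSeq for GRCm38.p6 and run 5′ to 3′ on the strand of the gene. Capitals mark an ISRE match, which is GAAA, any 2 bases and GAAA (TTTC, any 2 bases and TTTC on the other strand), or a GAS match, which is TTC, any 3 bases and GAA on either strand.

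Irf1, chr11:53769764-53770013, plus strand: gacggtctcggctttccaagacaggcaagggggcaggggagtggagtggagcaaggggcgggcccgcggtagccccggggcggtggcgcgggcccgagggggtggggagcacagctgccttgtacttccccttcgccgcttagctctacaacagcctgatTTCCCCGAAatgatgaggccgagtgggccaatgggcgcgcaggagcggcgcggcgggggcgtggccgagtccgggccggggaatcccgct
Isg15, chr4:156200819-156201068, minus strand: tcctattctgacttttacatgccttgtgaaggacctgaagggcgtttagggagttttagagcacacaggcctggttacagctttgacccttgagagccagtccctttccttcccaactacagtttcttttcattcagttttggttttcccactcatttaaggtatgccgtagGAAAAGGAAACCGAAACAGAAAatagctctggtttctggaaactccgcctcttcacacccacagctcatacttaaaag
Ifit1, chr19:34640639-34640888, plus strand: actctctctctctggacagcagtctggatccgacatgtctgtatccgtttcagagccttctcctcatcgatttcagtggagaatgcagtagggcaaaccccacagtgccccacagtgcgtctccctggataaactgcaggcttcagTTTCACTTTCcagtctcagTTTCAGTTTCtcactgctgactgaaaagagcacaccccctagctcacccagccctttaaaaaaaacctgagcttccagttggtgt
Gbp2, chr3:142620413-142620662, plus strand: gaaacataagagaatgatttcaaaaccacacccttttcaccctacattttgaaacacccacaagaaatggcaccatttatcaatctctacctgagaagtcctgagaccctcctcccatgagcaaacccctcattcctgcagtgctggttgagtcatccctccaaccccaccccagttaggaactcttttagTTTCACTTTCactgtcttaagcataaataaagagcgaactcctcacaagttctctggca
Cxcl10, chr5:92348890-92349139, minus strand: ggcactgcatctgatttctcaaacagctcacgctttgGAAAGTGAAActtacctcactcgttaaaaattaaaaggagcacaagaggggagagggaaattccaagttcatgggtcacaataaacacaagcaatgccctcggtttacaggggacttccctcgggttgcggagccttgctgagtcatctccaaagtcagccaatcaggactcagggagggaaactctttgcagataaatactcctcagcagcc
Psmb8, chr17:34197945-34198194, plus strand: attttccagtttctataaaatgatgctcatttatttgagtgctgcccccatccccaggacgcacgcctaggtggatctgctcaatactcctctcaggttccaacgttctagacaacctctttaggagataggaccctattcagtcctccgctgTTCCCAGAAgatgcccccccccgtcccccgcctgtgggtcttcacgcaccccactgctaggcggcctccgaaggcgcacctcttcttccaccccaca

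Isg15 carries overlapping ISRE matches in 1 run, Ifit1 carries 2 separate ones, and Gbp2 and Cxcl10 carry 1 each, while Irf1 and Psmb8 carry a GAS match. Of the 40 genes, 30 had a RefSeq window from 250 bases before to 50 after a start site. An ISRE match on either strand lay in 16 of these 30 (53.3%), against 3.99% of 27025 mouse genes. A GAS match lay in 7 of 30 (23.3%), against 9.55%. A match describes letters and not a bound site. The genes also sit in neighbourhoods on GRCm38. Ifit2, Ifit3, Ifit3b and Ifit1 follow each other on chromosome 19, Gbp5, Gbp7, Gbp3 and Gbp2 on chromosome 3, and Psme1, Psme2 and Irf9 on chromosome 14. Rsad2 and Cmpk2 lie 12.8 kb apart on chromosome 12, Psmb9 and Psmb8 9.96 kb apart on chromosome 17, and Cxcl9 and Cxcl10 18.6 kb apart on chromosome 5.

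Each level is the number of counts for a gene per 1000000 counts of its library (CPM). A change was tested with edgeR's quasi-likelihood test over all genes that passed a filter on low counts, and called at a Benjamini-Hochberg adjusted p under 0.05. Library totals ran between 17349082 and 30959773 counts. Cd276, the labelled target, was at 44.8 to 47.7 CPM in HM-1 cells labelled Cd276KO and 74.2 to 93.5 CPM in their controls, a log2 fold change of -0.85 ± 0.10 (SE) with an edgeR adjusted p of 0.00146. It was at 73.2 to 97.2 CPM in Cd276KO tumors and 107 to 142 CPM in control tumors, without a call (edgeR adjusted p = 0.105). It was at 18.3 to 21.0 CPM in ID8 cells labelled Cd276KO and 20.6 to 21.1 CPM in their controls (edgeR adjusted p = 0.692), so RNA level does not separate these groups by their label. Libraries of 1 group were compared by a chi-square over genes, divided by the number of genes, which is about 1 where counting alone separates them. It was 149 and 90.5 for control tumor 3 against control tumors 1 and 2, which differed from each other by 45.4. It was 71.3 and 69.9 for HM-1 control cell library 1 against libraries 2 and 3, which differed from each other by 1.62. Counts of calls are given with and without these libraries, as are the values they moved most. Keratin genes Krt8, Krt18 and Krt19 were detected in all groups. Of the mesothelial or ovarian surface markers, Upk3b averaged 957 CPM in ID8 cells labelled Cd276KO and 282 CPM in ID8 controls. Upk3b had no count in HM-1 control cells, but the marker list as a whole was detected there, and its sums are given below.

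**Figure D1:**
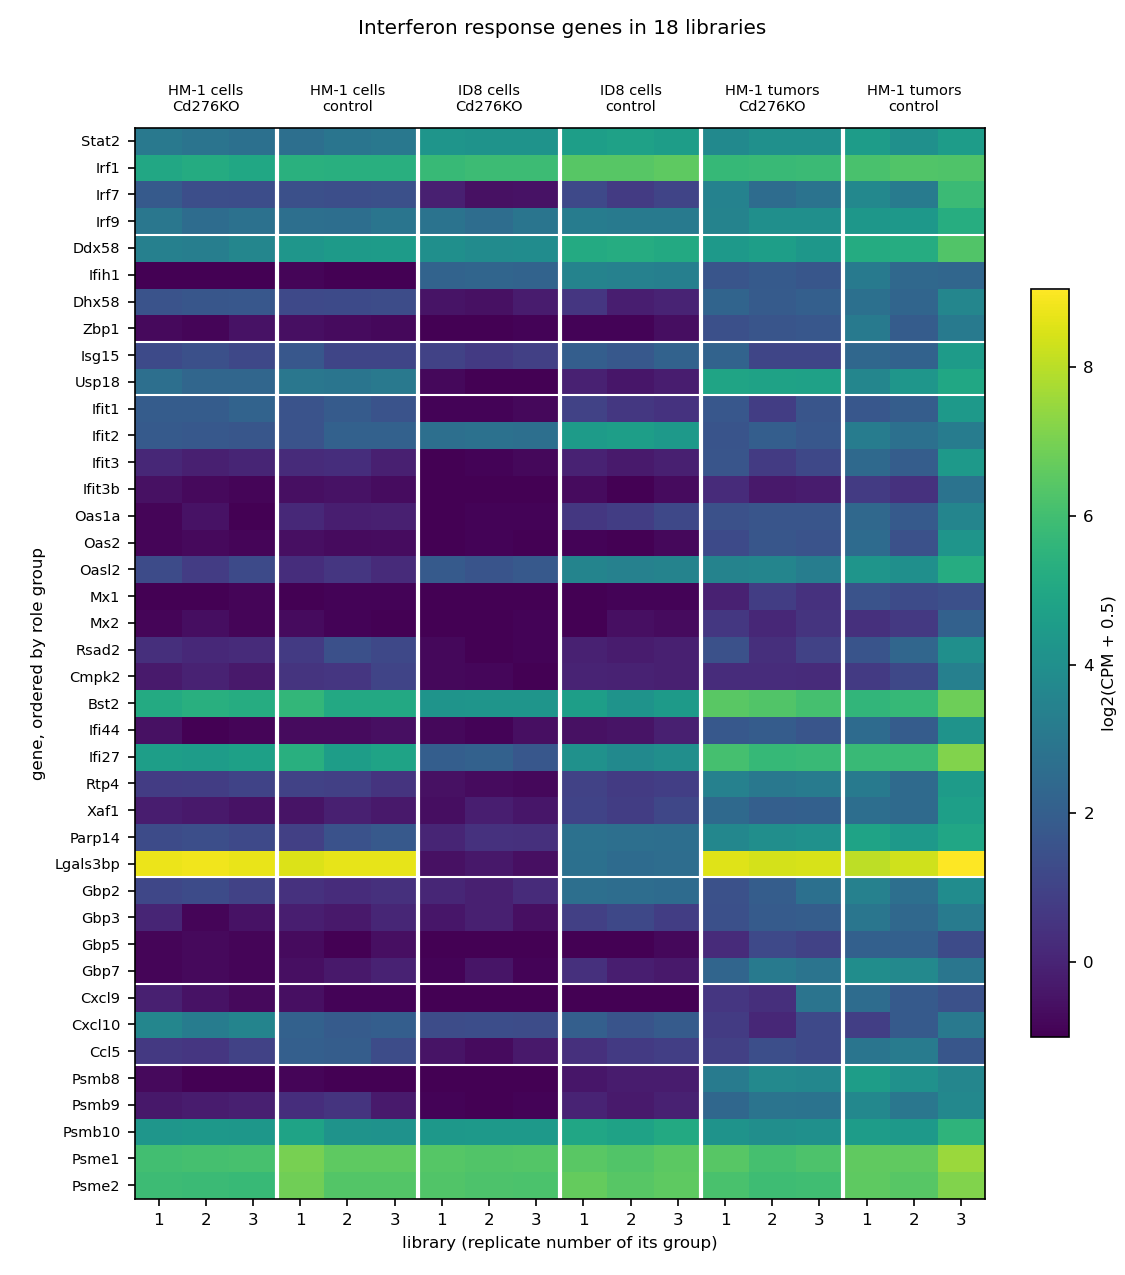
Level of each of the 40 genes (vertical axis, ordered by role) in each of the 18 libraries (horizontal axis), as log2(CPM + 0.5). ID8 cells labelled Cd276KO are the darkest columns, and library 3 of the control tumors is the brightest of the tumor columns for most genes.

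Most of the interferon response genes stood lowest in ID8 cells labelled Cd276KO and highest in HM-1 control tumors. By mean CPM over 6 groups, 25 of 40 genes were lowest in ID8 cells labelled Cd276KO and 31 of 40 were highest in control tumors. These ranks were not computed over all genes. The control tumor means lean on control tumor 3, which was the highest single tumor for 31 of 40 genes. Levels under 0.5 CPM were held by 24 of 40 genes in ID8 cells labelled Cd276KO and 15 in ID8 controls, by 17 in HM-1 Cd276KO cells and 14 in HM-1 controls, and by 1 in Cd276KO tumors and 0 in control tumors. Compared per length of transcript, Lgals3bp, a secreted glycoprotein that binds galectins, led in HM-1 control cells at 138 ± 8.25 CPM per kb (SD, n = 3). The proteasome activator subunit Psme2 followed at 52.4 ± 11.3 CPM per kb. In ID8 control cells Psme2 led at 52.6 ± 3.94 CPM per kb, ahead of its partner Psme1 at 38.9 ± 3.08 CPM per kb. Some genes share sequence with near copies, so their counts are uncertain. Ifit3 shares 51.2% of its 50-base stretches with Ifit3b, Oas1a 57.6% with Oas1g, and Psme2 28.3% with Psme2b.

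In ID8 cells labelled Cd276KO, interferon response genes of every role were lower than in ID8 controls. Of 40 genes 26 passed the low-count filter, and edgeR called 24 lower and 0 higher, where 31.3% of all 12932 genes tested were called lower and 29.4% higher. The median log2 fold change of the 26 was -1.82, against -0.01 for all genes tested. The filter let through genes that were high enough in one group alone, so these counts describe the genes that passed and not all 40. The remaining 14 had few counts, and in 7 of them every library labelled Cd276KO was also below every control. In all 24 of those called every library labelled Cd276KO lay below every control, as did 39.2% of all genes tested. DESeq2 called 23 lower and 0 higher, limma voom 24 and 0, and at an unadjusted p under 0.05 edgeR had 24 lower and 0 higher, against 64% of all genes in either direction.

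The transcription factors of the pathway were lower in all 4 cases. Irf7, which amplifies type I interferon production, was at 0.411, 0.178 and 0.212 CPM in libraries labelled Cd276KO and at 1.82, 1.16 and 1.6 CPM in controls. Irf1, itself induced by interferon gamma and a driver of immunoproteasome genes, was at 54.7, 57.9 and 58.3 CPM in libraries labelled Cd276KO and at 85.4, 85.9 and 92.5 CPM in controls. Stat2 was at 18.3, 17.4 and 17.3 CPM in libraries labelled Cd276KO and at 24.6, 26.5 and 23.9 CPM in controls. None of these 3 genes overlapped between the groups, and the step was steepest for Irf7. Its log2 fold change was -2.41 ± 0.35 (SE, edgeR adjusted p = 2.59e-06), against -0.55 ± 0.06 for Irf1 (adjusted p = 5.65e-08) and -0.42 ± 0.08 for Stat2 (adjusted p = 4.8e-05). Irf9, the DNA-binding partner of Stat2, fell by 0.34 ± 0.12 on the log2 scale (edgeR adjusted p = 0.0149), a call that was lost without control library 1 or without library 2 labelled Cd276KO.

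The cytoplasmic RNA sensors fell to similar degrees. Ddx58, which encodes RIG-I, was at 15.5, 13.9 and 14.1 CPM in ID8 libraries labelled Cd276KO and at 34.8, 36.3 and 34.1 CPM in controls. Ifih1, which encodes MDA5, was at 4.11, 4.34 and 4.02 CPM in libraries labelled Cd276KO and at 10.8, 10.0 and 9.69 CPM in controls. Both were tight within their groups and far apart between them, with log2 fold changes of -1.20 ± 0.08 (edgeR adjusted p = 3.01e-12) and -1.21 ± 0.11 (edgeR adjusted p = 4.48e-09). Dhx58, a regulator of both sensors, was at 0.224, 0.178 and 0.339 CPM in libraries labelled Cd276KO and at 1.02, 0.388 and 0.494 CPM in controls. Its log2 fold change of -1.28 ± 0.45 (edgeR adjusted p = 0.0177) was no longer called without control library 1, where it was -0.76, without library 1 or 2 labelled Cd276KO, or by DESeq2. The Z-nucleic acid sensor Zbp1 was at the limit of detection, with 1 count over 3 libraries labelled Cd276KO and 6 over 3 controls.

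Isg15, a ubiquitin-like modifier attached to proteins during the interferon response, was at 1.49, 1.14 and 1.36 CPM in libraries labelled Cd276KO and at 3.50, 2.87 and 3.91 CPM in controls. The groups did not overlap, and the log2 fold change was -1.29 ± 0.20 (edgeR adjusted p = 6.04e-06). Usp18, the protease that removes Isg15 and restrains the type I receptor, had 2 counts over libraries labelled Cd276KO and 30 over controls. That is 13.9 times fewer per library size (95% interval from counting alone 3.52 to 120), and the gene did not pass the filter.

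Antiviral effectors held the largest differences. Of 18 effectors 11 were tested and 10 were called lower, while Bst2, which tethers budding virus to the cell surface, had a log2 fold change of -0.15 ± 0.10 without a call (edgeR adjusted p = 0.2). Oas1a, an oligoadenylate synthetase whose product activates an RNA-degrading enzyme, was at 0, 0.0356 and 0.0424 CPM in libraries labelled Cd276KO and at 1.06, 1.29 and 1.79 CPM in controls. That was 2 counts in all against 116, 53.7 times lower (95% counting interval 14.5 to 449, edgeR adjusted p = 1.75e-08). Its near copy Oas1g had 0 counts in libraries labelled Cd276KO and 59 in controls, at least 18.2-fold lower when 0 is set to 3 counts over the 3 libraries, so both genes of the pair were lower. Lgals3bp was at 0.187, 0.285 and 0.169 CPM in libraries labelled Cd276KO and at 6.01, 5.14 and 5.55 CPM in controls, a log2 fold change of -4.58 ± 0.24 (edgeR adjusted p = 1.64e-13). Ifit1, which binds foreign capped RNA, was at 0.0373, 0.0356 and 0.0847 CPM in libraries labelled Cd276KO and at 1.49, 1.03 and 0.874 CPM in controls, a log2 fold change of -4.28 ± 0.50 (edgeR adjusted p = 1.42e-07). These 3 genes were near the limit of detection in every library labelled Cd276KO. The other effectors called lower were Rtp4, Cmpk2, Parp14, Xaf1, Ifi27, Ifit2 and Oasl2, with log2 fold changes between -3.26 and -1.82. Rsad2, which makes a nucleotide that stops viral RNA synthesis, had 3 counts in libraries labelled Cd276KO and 34 in controls, 10.5 times fewer (3.30 to 53.4), and Ifit3 had the same counts.

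The guanylate-binding GTPases, which attack the membranes of intracellular pathogens, followed. Gbp2 was at 0.560, 0.427 and 0.678 CPM in libraries labelled Cd276KO and at 5.83, 5.46 and 5.17 CPM in controls, a log2 fold change of -3.23 ± 0.20 (edgeR adjusted p = 2.92e-12). Gbp3 was at 0.261, 0.427 and 0.169 CPM in libraries labelled Cd276KO and at 1.38, 1.74 and 1.25 CPM in controls, a log2 fold change of -2.23 ± 0.33 (edgeR adjusted p = 4.15e-06). Neither overlapped between groups. Of the chemokines, Ccl5, which attracts T cells, was at 0.224, 0.107 and 0.297 CPM in libraries labelled Cd276KO and at 0.801, 1.13 and 1.33 CPM in controls, with a log2 fold change of -2.31 ± 0.39 (edgeR adjusted p = 2.08e-05). Cxcl10, a ligand of Cxcr3 on activated T cells, was at 2.05, 2.10 and 2.03 CPM in libraries labelled Cd276KO and at 3.6, 2.58 and 3.15 CPM in controls. Its log2 fold change of -0.51 ± 0.18 (edgeR adjusted p = 0.0169) was not called without control library 1. Cxcl9, another Cxcr3 ligand, had 0 counts in all 6 ID8 libraries, which allows up to 3 counts over either group.

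The immunoproteasome was split between its subunits. Psmb8, a catalytic subunit that takes the place of Psmb5, had 0 counts in libraries labelled Cd276KO and 27 in controls, at least 8.33-fold lower with 0 again set to 3 counts. Psmb9, which replaces Psmb6, had 2 counts in libraries labelled Cd276KO and 36 in controls, 16.7 times fewer (4.29 to 143). Neither passed the filter, and both were scarce even in controls. Psmb10, which replaces Psmb7, was at 19.9, 20.7 and 21.4 CPM in libraries labelled Cd276KO and at 30.6, 27.1 and 33.4 CPM in controls, a log2 fold change of -0.48 ± 0.08 (edgeR adjusted p = 2.9e-05). The activator subunit Psme2 was at 79.8, 75.6 and 72.5 CPM in libraries labelled Cd276KO and at 100, 86.1 and 92.1 CPM in controls, a log2 fold change of -0.21 ± 0.06 (edgeR adjusted p = 0.00664) that was not called without control library 1. Psme1 was level, at 0.00 ± 0.06 on the log2 scale without a call (edgeR adjusted p = 0.97). Of 15 genes of the constitutive proteasome and its other activator, 11 were called higher and 2 lower, with a median log2 fold change of 0.30. Of all genes tested, 29.4% were called higher and 31.3% lower. Per length of transcript, Psmb10 made up 15.0 to 15.3% of Psmb10 and Psmb7 together in libraries labelled Cd276KO and 21.8 to 25.8% in controls.

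Upstream of these genes, 6 of 10 receptor and kinase genes were called lower and 1 higher, where 31.3% and 29.4% of all genes were. Ifnar1 averaged 36.5 CPM in ID8 cells labelled Cd276KO and 69.8 CPM in controls, a log2 fold change of -0.86 ± 0.06 (edgeR adjusted p = 3.77e-11). The kinase Jak2 was the lowest of them at -0.95 ± 0.06, and Ifnlr1, a receptor chain for interferon lambda, was the gene called higher, at 0.87 ± 0.13 on the log2 scale. Ifngr1 at 0.07 ± 0.07 was not called (edgeR adjusted p = 0.426). Among 43 further interferon-stimulated genes 30 were tested, and 24 were called lower and 1 higher. Ly6e, a membrane protein that limits coronavirus entry, had 2 counts in libraries labelled Cd276KO and 1730 in controls, 801 times fewer (221 to 6619). The peptide transporter genes Tap1 and Tap2 had log2 fold changes of -3.35 ± 0.19 and -3.79 ± 0.22. The 10 interferon genes searched were almost silent in all groups, with no count for 5 of them in 18 libraries and at most 4 counts over a group for any other. Ifnb1 and Ifng had no count in the 6 ID8 libraries, while in HM-1 cells Ifnb1 had 2 counts and Ifng 1 over Cd276KO libraries and none over controls. Markers of leukocytes (Ptprc and Coro1a) summed to at most 0.0847 CPM in libraries labelled Cd276KO and 0.194 CPM in controls. The 4 mesothelial or ovarian surface markers summed to 1951 to 2014 CPM in libraries labelled Cd276KO and 1079 to 1136 CPM in controls, and their part in the result was not tested.

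HM-1 cells gave a mixed picture with no shared direction. Of 40 genes 25 were tested, and edgeR called 4 higher and 7 lower in Cd276KO cells, where 11.6% of 12457 genes were called higher and 16.1% lower. The 3 libraries lay above all controls in 6 genes and below in 8, as did 22.5% and 30.5% of all genes tested. The median log2 fold change was -0.06 for the 25 and -0.01 for all genes tested. Without control library 1, 7 of 26 were called higher and 8 lower, close to the 28.6% and 30.4% of all 12685 genes called higher and lower in that fit, and all 11 of the original calls held. Without control library 2 or 3, 9 and 8 of the 11 held, and without Cd276KO library 1, 2 or 3 only 4, 5 and 4 of the 11 held, and the calls that held in every fit without 1 library were Ddx58 lower and Gbp2 and Cxcl10 higher.

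Cxcl10 had the largest rise of the 25 genes. It was at 11.6, 8.76 and 11.1 CPM in HM-1 Cd276KO cells and at 3.80, 3.19 and 3.51 CPM in controls, a log2 fold change of 1.63 ± 0.15 (edgeR adjusted p = 0.000506). The other tested chemokine went the opposite way. Ccl5 was at 1.10, 1.02 and 1.5 CPM in Cd276KO cells and at 3.57, 3.35 and 2.03 CPM in controls, a log2 fold change of -1.26 ± 0.29 (edgeR adjusted p = 0.0185). Cxcl9 had 0.430, 0.205 and 0.103 CPM in Cd276KO cells and 0.170, 0.0394 and 0.0422 CPM in controls, overlapping and too low to test. Gbp2 was at 1.72, 1.95 and 1.5 CPM in Cd276KO cells and at 0.851, 0.710 and 0.803 CPM in controls, a log2 fold change of 1.17 ± 0.20 (edgeR adjusted p = 0.00592). Oasl2, an oligoadenylate synthetase-like protein, was at 1.96, 1.23 and 1.91 CPM in Cd276KO cells and at 0.737, 0.986 and 0.676 CPM in controls, a log2 fold change of 1.11 ± 0.27 (edgeR adjusted p = 0.0221).

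The lower genes in HM-1 Cd276KO cells included the neighbours Rsad2 and Cmpk2, which act in the same nucleotide pathway. Cmpk2, a mitochondrial nucleotide kinase that supplies Rsad2, was at 0.334, 0.461 and 0.309 CPM in Cd276KO cells and at 0.907, 0.986 and 1.61 CPM in controls, a log2 fold change of -1.62 ± 0.33 (edgeR adjusted p = 0.0131). Rsad2 was at 0.764, 0.615 and 0.670 CPM in Cd276KO cells and at 1.13, 2.25 and 1.77 CPM in controls, a log2 fold change of -1.30 ± 0.29 (edgeR adjusted p = 0.0176). Neither overlapped between groups. The sensors split, since Ddx58 fell and Dhx58 rose. Ddx58 was at 9.79, 9.32 and 11.6 CPM in Cd276KO cells and at 18.8, 21.6 and 22.3 CPM in controls, a log2 fold change of -0.99 ± 0.12 (edgeR adjusted p = 0.00143). Dhx58 was at 2.48, 2.71 and 2.78 CPM in Cd276KO cells and at 1.81, 1.89 and 2.03 CPM in controls, a log2 fold change of 0.51 ± 0.14 (edgeR adjusted p = 0.0359), a call that DESeq2 did not make and that was lost without any 1 library other than control library 1. Usp18 was at 5.82, 4.51 and 4.49 CPM in Cd276KO cells and at 7.49, 6.98 and 7.90 CPM in controls, a log2 fold change of -0.55 ± 0.14 (edgeR adjusted p = 0.0257). Of the proteasome activator, Psme2 was at 59.1, 57.3 and 53.4 CPM in Cd276KO cells and at 115, 80.6 and 81.2 CPM in controls, and Psme1 at 63.7, 66.7 and 68.7 CPM in Cd276KO cells and 125, 93.5 and 93.2 CPM in controls. Control library 1 was the high one for both. Their log2 fold changes were -0.67 ± 0.16 and -0.61 ± 0.14 (edgeR adjusted p = 0.0221 and 0.0186), and -0.46 and -0.44 without control library 1.

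The transcription factors were not called in HM-1 cells. Irf1 was at 31.6, 35.2 and 31 CPM in Cd276KO cells and at 40.7, 39.5 and 39.6 CPM in controls, below all controls but without a call (edgeR adjusted p = 0.0632). Irf7 was at 3.10, 2.15 and 2.11 CPM in Cd276KO cells and at 2.27, 2.13 and 2.24 CPM in controls, and Stat2 at 7.78, 6.76 and 5.98 CPM in Cd276KO cells and 5.84, 6.94 and 7.60 CPM in controls. Isg15 was at 1.86, 2.25 and 1.75 CPM in Cd276KO cells and at 2.78, 1.62 and 1.65 CPM in controls. These last 3 overlapped between groups, with log2 fold changes of 0.20 ± 0.19, 0.05 ± 0.14 and 0.02 ± 0.26 (edgeR adjusted p from 0.473 to 0.958). Psmb8 had 2 counts over Cd276KO cells and 1 over controls. Psmb9 was at 0.286, 0.359 and 0.413 CPM in Cd276KO cells and at 0.737, 0.907 and 0.338 CPM in controls, overlapping and not tested.

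In the wider pathway in HM-1 cells, Ifnar1 at 0.38 ± 0.14 and Ifngr1 at -0.05 ± 0.07 on the log2 scale were not called (edgeR adjusted p = 0.0867 and 0.658). Over all genes tested in HM-1 cells, 11.6% were called higher and 16.1% lower. Of 10 receptor and kinase genes 1 was called, Ifnlr1, at 1.66 CPM in Cd276KO cells and 5.79 CPM in controls. Its log2 fold change was -1.77 ± 0.23 (edgeR adjusted p = 0.00221). Of 43 further interferon-stimulated genes 31 were tested, with 3 called higher and 9 lower. Trim30a at -2.39 ± 0.23, Sp100 at -2.12 ± 0.18 and Nlrc5, the activator of major histocompatibility class I genes, at -1.61 ± 0.17 were the lowest. The regulator gene Irf8 averaged 0.369 CPM in Cd276KO cells and 5.19 CPM in controls, a log2 fold change of -3.76 ± 0.25 (edgeR adjusted p = 0.000134). Of 15 constitutive proteasome genes 1 was called lower and 0 higher, at a median log2 fold change of -0.39. These counts changed without control library 1. Without it 10 constitutive proteasome genes were called lower and 1 higher at a median of -0.14, the receptor and kinase genes had 3 called higher and 2 lower, and the further interferon-stimulated genes 6 higher and 11 lower of 32 tested, in a fit where 28.6% of all genes were higher and 30.4% lower. Leukocyte markers summed to at most 0.477 CPM in Cd276KO cells and 0.454 CPM in controls. The mesothelial or ovarian surface markers summed to 44.2 to 49.7 CPM in Cd276KO cells and 12.2 to 14.5 CPM in controls, and their part in the result was not tested.

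**Figure D2:**
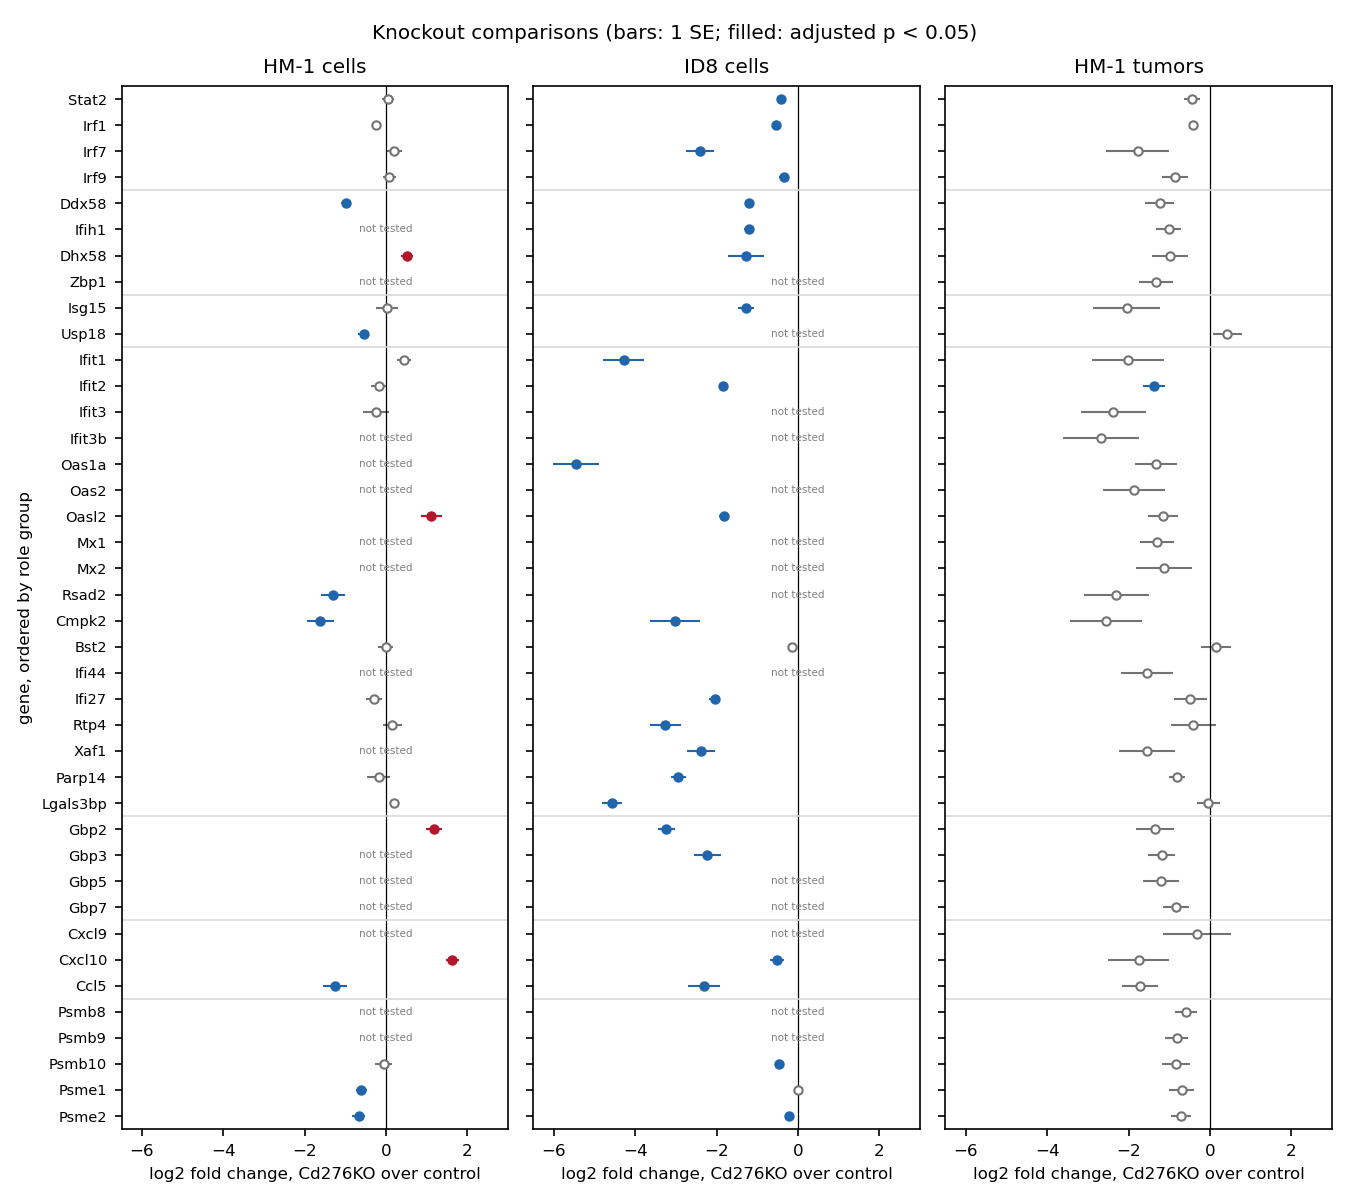
Log2 fold change of each gene (vertical axis, ordered by role) in libraries labelled Cd276KO over their controls, in HM-1 cells, ID8 cells and HM-1 tumors. Points are edgeR estimates with bars of 1 SE, filled where the adjusted p was under 0.05. In ID8 cells 24 filled points lie left of 0, in HM-1 cells filled points lie on both sides, and in tumors the points lie left of 0 in 38 of 40 genes with 1 filled.

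The difference between the lines in the effect of the Cd276KO label was tested directly as an interaction over the 12 culture libraries. Of 30 genes tested, edgeR called 18 lower and 1 higher in ID8 than in HM-1, where 20.7% of 14208 genes were called lower and 19.8% higher. The median of the differences was -1.79 for the 30 and -0.03 for all genes tested. The filter let through genes that were high enough in only some of the groups. Among them were Usp18, Ifit3 and Psmb9, with 2, 3 and 2 counts over ID8 libraries labelled Cd276KO. The counts and the median here include such genes and do not describe all 40. Gbp2 differed by -4.41 ± 0.27 (edgeR adjusted p = 7.32e-08) and Cxcl10 by -2.15 ± 0.22 (adjusted p = 8.4e-06), as both rose in HM-1 Cd276KO cells and fell in ID8 cells labelled Cd276KO. Oasl2 differed by -2.94 ± 0.27 (edgeR adjusted p = 2.81e-06) and Dhx58 by -1.80 ± 0.46 (adjusted p = 0.00751), with the same crossing. Lgals3bp differed by -4.78 ± 0.19 (edgeR adjusted p = 1.83e-09) and Ifit1 by -4.72 ± 0.47 (adjusted p = 6.39e-06). Psme1 was the gene called higher, by 0.60 ± 0.16 (edgeR adjusted p = 0.00822). Without HM-1 control library 1, 22 of 31 were called lower and 2 higher, where 25% of all genes were called lower and 24% higher. Ddx58 fell in both lines, and the difference of -0.22 ± 0.13 was not called (edgeR adjusted p = 0.214).

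In HM-1 tumors, the estimates for Cd276KO over control tumors were negative for 38 of 40 interferon response genes, but the spread between control tumors was wide and 1 gene was called. All 40 were tested, and edgeR called Ifit2 lower and 0 genes higher, where 3.18% of 15345 genes were called lower and 2.2% higher. The median log2 fold change was -1.17, against -0.03 for all genes tested. At an unadjusted p under 0.05, 25 of 40 were lower and 0 higher, against 25% of all genes in either direction. All 3 Cd276KO tumors lay below all 3 control tumors in 24 of 40 genes and above in 0, against 20.6% and 14.2% of genes tested. The 24 held all 4 sensors, 11 of 18 effectors, 4 of 5 immunoproteasome genes, 2 transcription factors, 2 guanylate-binding GTPases and 1 chemokine. DESeq2 called 16 lower and 0 higher, where 8.85% of all genes were called lower and 7.21% higher. With limma voom and quality weights 12 were lower and 1 higher, where 11.3% and 9.4% of all genes were. In a whole tumor, fewer cells of a type and less RNA per cell cannot be told apart.

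Ifit2, which binds viral RNA and slows translation, was at 2.56, 3.53 and 2.77 CPM in Cd276KO tumors and at 8.70, 6.10 and 8.71 CPM in control tumors. The groups were apart with a log2 fold change of -1.37 ± 0.28 (edgeR adjusted p = 0.0415). The call held without control tumor 3, at -1.24 (edgeR adjusted p = 0.0328), and was lost without control tumor 1 or 2 or any 1 of the Cd276KO tumors. Irf1 was at 52.9, 55.5 and 57.5 CPM in Cd276KO tumors and at 70.7, 80.0 and 77.1 CPM in control tumors, a log2 fold change of -0.42 ± 0.10 without a call (edgeR adjusted p = 0.0646). Stat2 was at 13.0, 16.1 and 15.9 CPM in Cd276KO tumors and at 23.2, 16.1 and 23.1 CPM in control tumors (edgeR adjusted p = 0.22). Irf1 thus kept the groups apart and Stat2 did not.

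For a second set of genes the values rested on control tumor 3. Irf7 was at 10.5, 5.28 and 6.57 CPM in Cd276KO tumors and at 12.5, 8.49 and 56.3 CPM in control tumors. Isg15 was at 4.12, 1.66 and 1.61 CPM in Cd276KO tumors and at 4.61, 3.99 and 22.3 CPM in control tumors. Ifit1 was at 2.84, 1.28 and 2.59 CPM in Cd276KO tumors and at 2.83, 3.38 and 20.9 CPM in control tumors. In all 3 genes control tumors 1 and 2 lay near the Cd276KO tumors, and control tumor 3 far above. Isg15 had a log2 fold change of -2.04 ± 0.82 (edgeR adjusted p = 0.186), and -0.71 without control tumor 3 (adjusted p = 0.354). Irf7 likewise had -1.78 ± 0.77 (edgeR adjusted p = 0.21), and -0.41 without control tumor 3 (adjusted p = 0.469). Ifit1 had -2.01 (edgeR adjusted p = 0.214), and -0.40 without control tumor 3 (adjusted p = 0.549). Control tumor 3 was the highest of the 6 tumors for 31 of 40 genes, against 30.5% of all genes tested. It exceeded the mean of control tumors 1 and 2 by more than a factor of 2 in 21 of 40 genes, against 6.50% of all genes, led by Ifit1 at 6.72, Cmpk2 at 6.69, Irf7 at 5.35 and Isg15 at 5.18. Without it the median log2 fold change of the 40 genes was -0.61, and edgeR called 4 lower, which were Ifit2, Ccl5, Gbp7 and Ddx58, and 2 higher, which were Usp18 at 0.91 and Bst2 at 0.72. In that fit 5.87% of all genes were called lower and 4.82% higher.

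Ccl5, Cxcl9 and Psmb8 were lower in control tumor 3 than in the other control tumors, while Cxcl10, Psmb9, Psmb10, Psme1 and Psme2 were highest there of the 6 tumors. Ccl5 was at 1.39, 2.13 and 1.84 CPM in Cd276KO tumors and at 7, 8.53 and 2.71 CPM in control tumors, where tumor 3 was the lowest control. Its log2 fold change was -1.71 ± 0.45 without a call (edgeR adjusted p = 0.0735), and -2.04 without control tumor 3 (adjusted p = 0.00862). Psmb8 was at 8.57, 12.7 and 12 CPM in Cd276KO tumors and at 23.7, 16.2 and 11.8 CPM in control tumors, and Psmb9 at 4.56, 6.68 and 6.57 CPM in Cd276KO tumors and 12.3, 7.41 and 12.3 CPM in control tumors. Psmb8 overlapped between the groups and Psmb9 did not, and neither was called (edgeR adjusted p = 0.229 and 0.14). Cxcl9 was at 1.00, 0.766 and 6.80 CPM in Cd276KO tumors and at 5.42, 3.09 and 2.35 CPM in control tumors, where Cd276KO tumor 3 was the highest of the 6. Cxcl10 was at 1.17, 0.596 and 1.84 CPM in Cd276KO tumors and at 1.34, 3.05 and 7.77 CPM in control tumors. Both chemokines overlapped, with log2 fold changes of -0.32 ± 0.84 and -1.75 ± 0.75 (edgeR adjusted p = 0.846 and 0.208). Without control tumor 3 that of Cxcl10 was -0.80 (adjusted p = 0.377). In 6 of 40 genes, Ccl5, Gbp7, Gbp5, Cxcl9, Psmb8 and Ifih1, control tumor 3 was below the mean of the other control tumors.

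**Figure D3:**
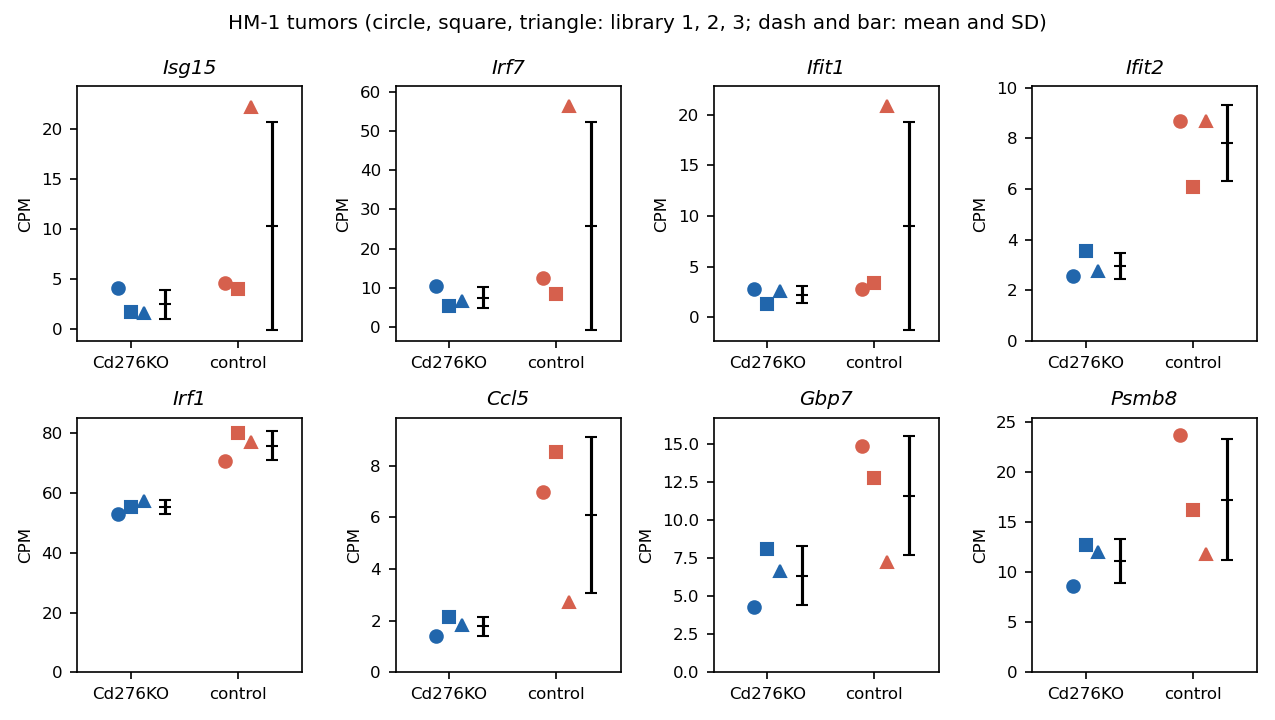
CPM (vertical axis) of 8 genes in the 3 Cd276KO tumors and 3 control tumors, with 1 symbol per library and the mean and SD beside them. Control tumor 3 (triangle) stands far above the rest for Isg15, Irf7 and Ifit1, and is the lowest control for Ccl5, Gbp7 and Psmb8.

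Markers of other cells differed between the tumor groups too. The 2 leukocyte markers summed to 38.5 to 66.8 CPM in Cd276KO tumors and 72.4 to 131 CPM in control tumors. The 5 markers of NK and cytotoxic cells summed to 0.612 to 1.21 CPM in Cd276KO tumors and 4.90 to 9.33 CPM in control tumors, and the 4 neutrophil markers to 7.02 to 11.1 CPM in Cd276KO tumors and 23.1 to 98.3 CPM in control tumors. None of these 3 lists overlapped between groups. The 5 macrophage markers summed to 172 to 298 CPM in Cd276KO tumors and 259 to 508 CPM in control tumors, and the 5 T cell markers to 1.61 to 4.96 CPM in Cd276KO tumors and 4.07 to 11.2 CPM in control tumors, both overlapping. The 4 striated muscle markers summed to 115 to 651 CPM in Cd276KO tumors and 11 to 120 CPM in control tumors. Markers of dendritic cells (3.06 to 8.34 CPM in Cd276KO tumors, 2.71 to 9.83 CPM in control tumors), endothelial cells (109 to 163 CPM in Cd276KO tumors, 55.9 to 206 CPM in control tumors) and fibroblasts (799 to 1753 CPM in Cd276KO tumors, 269 to 5646 CPM in control tumors) overlapped too, and B cell markers stayed under 1 CPM in every tumor. Epithelial markers (Krt8, Krt18, Krt19 and Epcam) summed to 3416 to 4298 CPM in Cd276KO tumors and 3782 to 5451 CPM in control tumors. The 4 mesothelial or ovarian surface markers summed to 72.2 to 92.0 CPM in Cd276KO tumors and 102 to 170 CPM in control tumors, without overlap, nearly all of it Msln. Of all these markers, Upk3b had no count in either tumor group, Lrrn4 had none in Cd276KO tumors and Ms4a1, a B cell marker, none in control tumors. The part of these cells in the result was not tested. Interferon genes stayed at the floor, since Ifnb1 had 0 counts over Cd276KO tumors and 4 over control tumors, and Ifng had 2 over Cd276KO tumors and 1 over control tumors.

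Other pathway genes in the tumors showed few calls. Ifnar1 at 0.11 ± 0.13 and Ifngr1 at 0.16 ± 0.14 on the log2 scale were not called (edgeR adjusted p = 0.656 and 0.536). Of 43 further interferon-stimulated genes 41 were tested, with 3 called lower and 0 higher, where 3.18% and 2.2% of all genes were. At an unadjusted edgeR p under 0.05 there were 13 of 41, against 25% of all genes. Without control tumor 3, 5 were called lower and 1 higher, where 5.87% and 4.82% of all genes were. Nlrc5 was the lowest of those called, at -2.73 ± 0.44 on the log2 scale (edgeR adjusted p = 0.0294), with Trim30a at -1.09 ± 0.19 and Gbp9 at -1.01 ± 0.18. Socs3, a feedback inhibitor of cytokine receptors, was called at -1.07 ± 0.20 (edgeR adjusted p = 0.0389). The adaptor Tmem173, which encodes STING, was called higher at 0.61 ± 0.10 (edgeR adjusted p = 0.0284).

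The knockout effect in tumors was set against that in HM-1 cells by an interaction over 12 libraries. edgeR called 3 of 40 genes lower and 0 higher, where 1.12% of 15623 genes were called lower and 1.72% higher. Genes such as Psmb8, with 1 count over control cells, passed the filter through the tumors. At an unadjusted p under 0.05, 10 were lower and 1, Usp18, was higher, against 14.6% of all genes in either direction. DESeq2 called 4 lower and 0 higher, where 2.67% of all genes were called lower and 3.43% higher. With limma voom 7 were lower and 2 higher, where 8.92% and 10.7% of all genes were. The 3 genes were among the 4 called higher in HM-1 Cd276KO cells, and all 4 had negative estimates in tumors. The fourth, Dhx58, was not called here. Cxcl10 differed by -3.34 ± 0.76, Gbp2 by -2.50 ± 0.55 and Oasl2 by -2.25 ± 0.47 (edgeR adjusted p = 0.0412, 0.0339 and 0.0263). Without control tumor 3 Cxcl10 differed by -2.47, and all 3 calls held. Usp18 was then called higher, by 1.43 (edgeR adjusted p = 0.00929). In that fit 2.4% of all genes were called lower and 3.29% higher. None of the 3 calls was left without HM-1 control cell library 1, 2 or 3, or Cd276KO cell library 1 or 3. The same held without Cd276KO tumor 1 or 2, and 1 of the 3 was left without Cd276KO cell library 2 or Cd276KO tumor 3.

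Control tumors held far higher levels of most interferon response genes than HM-1 control cells in culture. All 40 genes were tested, and edgeR called 30 higher and 0 lower, where 25.3% of 14609 genes were called higher and 16.6% lower. The filter let through genes that were high enough in tumors alone, such as Psmb8 and Ifih1 with 1 count each over control cells. Such genes could not have been called lower, and the counts and medians here include them. All 3 tumors lay above all 3 cultures in 31 genes and below in 0, as did 37.0% and 18.9% of all genes tested. At an unadjusted p under 0.05, 31 were higher and 0 lower, against 50.6% of all genes in either direction. DESeq2 called 31 higher and 0 lower, where 26.8% of all genes were called higher and 19.3% lower. With limma voom 33 were higher and 1 lower, where 35.4% and 29.5% of all genes were. The median log2 fold change was 3.24, against 0.05 for all genes tested, and 2.14 without control tumor 3. Another scaling, by upper quartile, moved the median of all genes to 0.19 and the share of higher ones among all genes called to 71.0%, against 60.4%. HM-1 control cells also serve as the reference for the knockout and line comparisons, so these comparisons share libraries. Without control cell library 1, 2 or 3, 23 of the 30 calls held each time, and Ddx58, Dhx58, Ifi27, Ifit2, Ifit3b, Isg15 and Usp18 did not. Without control tumor 3, 28 held, the exceptions being Isg15 and Ifi27. Lgals3bp was then called lower, at -0.60, and Ccl5 higher, at 1.20 on the log2 scale.

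All 4 transcription factors and all 4 sensors were higher in tumors. Irf7 averaged 25.8 ± 26.5 CPM in control tumors and 2.21 ± 0.07 CPM in control cells (SD, n = 3 each), a log2 fold change of 3.41 ± 0.75 (edgeR adjusted p = 0.0101), and 2.07 without control tumor 3 (adjusted p = 0.00131). Irf9 averaged 25.6 ± 10.2 CPM in control tumors and 6.10 ± 0.682 CPM in control cells, and Stat2 20.8 ± 4.09 CPM in control tumors and 6.80 ± 0.890 CPM in control cells. Their log2 fold changes were 1.93 ± 0.31 and 1.48 ± 0.22 (edgeR adjusted p = 0.003 and 0.00226). Ifih1 had 394 counts over control tumors and 1 over control cells, 403 times more per library size (71.9 to 15945). Zbp1 was at 7.97, 3.33 and 8.34 CPM in control tumors and at 0.170, 0.118 and 0.0845 CPM in control cells, a log2 fold change of 5.56 ± 0.57 (edgeR adjusted p = 0.000706). Dhx58 was at 5.95, 4.36 and 11.8 CPM in control tumors and at 1.81, 1.89 and 2.03 CPM in control cells, a log2 fold change of 1.81 ± 0.43 (edgeR adjusted p = 0.0135).

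Among effectors, 13 of 18 were called higher in control tumors. Mx1, a dynamin-like GTPase that blocks influenza virus, was at 2.43, 1.92 and 2.24 CPM in control tumors and at 0, 0.0394 and 0.0422 CPM in control cells, 144 counts against 2, or 73.6 times more (20 to 613). Oas2 was at 5.26, 2.30 and 18.4 CPM in control tumors and at 0.170, 0.118 and 0.127 CPM in control cells, a log2 fold change of 5.81 ± 0.95 (edgeR adjusted p = 0.00333), and 4.58 without control tumor 3. Ifi44 was at 5.22, 3.33 and 17.3 CPM in control tumors and at 0.113, 0.118 and 0.169 CPM in control cells, a log2 fold change of 5.82 ± 0.82 (edgeR adjusted p = 0.00198), and 4.77 without control tumor 3. Both calls held without it. These genes were close to silent in culture. Lgals3bp, already high in culture, averaged 370 ± 138 CPM in control tumors and 392 ± 23.5 CPM in control cells, without a call (edgeR adjusted p = 0.548).

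All 4 guanylate-binding GTPases were called, with Gbp7 at 14.9, 12.8 and 7.25 CPM in control tumors and 0.170, 0.316 and 0.465 CPM in control cells (log2 fold change 5.01 ± 0.46, edgeR adjusted p = 0.000492). Of the chemokines, Cxcl9 was at 5.42, 3.09 and 2.35 CPM in control tumors and 0.170, 0.0394 and 0.0422 CPM in control cells (log2 fold change 5.31 ± 0.67, edgeR adjusted p = 0.00134), and 6.17 without control cell library 1. Cxcl10 at 0.07 ± 0.60 and Ccl5 at 0.87 ± 0.47 on the log2 scale were not called (edgeR adjusted p = 0.934 and 0.177), and Cxcl10 was at -0.86 without control tumor 3. The proteasome subunits split again. Psmb8 had 1157 counts over control tumors and 1 over control cells, 1182 times more (212 to 46746), and Psmb9 was higher by 3.86 ± 0.46 on the log2 scale (edgeR adjusted p = 0.00109). Psmb10 at 0.35 ± 0.38, Psme1 at 0.14 ± 0.30 and Psme2 at 0.06 ± 0.27 were not called (edgeR adjusted p from 0.49 to 0.868). Per length, Psmb8 made up 3.95 to 9.07% of Psmb8 and Psmb5 together in control tumors and at most 0.0126% in control cells. The leukocyte markers Ptprc and Coro1a summed to 72.4 to 131 CPM in control tumors and 0.276 to 0.454 CPM in control cells, and the share of the rise that came with such cells was not tested.

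**Figure D4:**
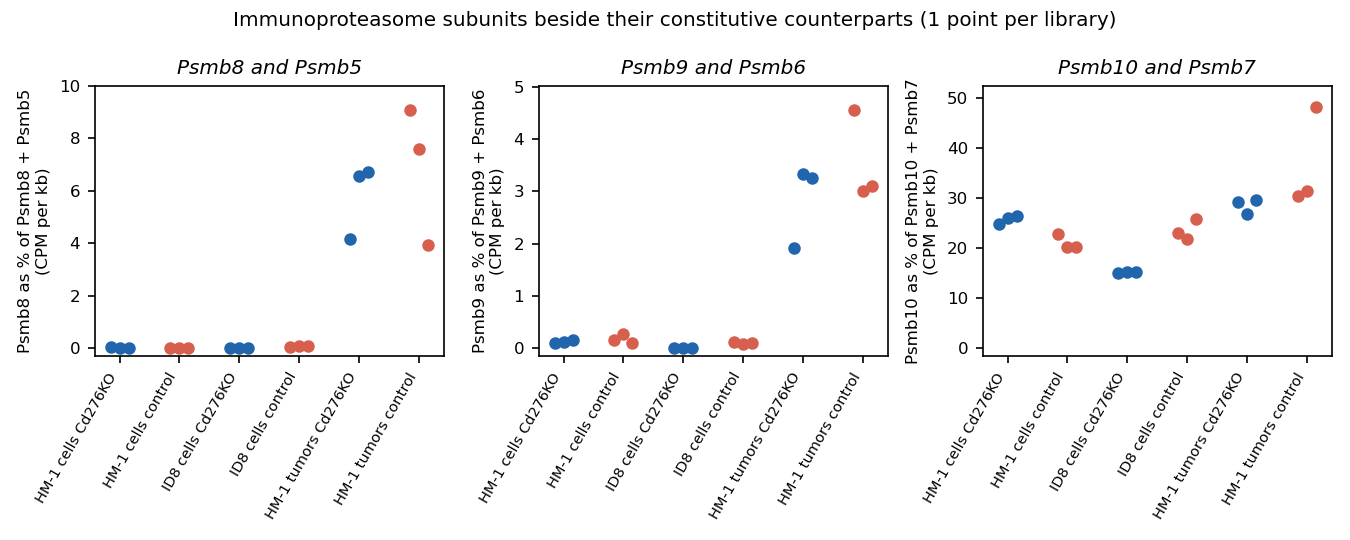
Share of each inducible catalytic subunit in its pair with the constitutive counterpart, in % of their CPM per kb (vertical axis), with 1 point per library in 6 groups. Psmb8 and Psmb9 stand near 0 in cultured cells and between 1.92 and 9.07% in tumors, while Psmb10 holds 15.0% or more in every library.

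ID8 and HM-1 control cells differed in both directions in interferon response genes, as they did over all genes tested. Between ID8 control cells and HM-1 control cells 31 of 40 genes were tested, and edgeR called 13 higher and 10 lower in ID8, where 28.8% of 13732 genes were called higher and 29.6% lower. The 3 ID8 libraries lay above all HM-1 libraries in 13 of the 31 and below in 11, as did 35.9% and 31.4% of all genes tested. The median log2 fold change was 0.04 for the 31 and -0.01 for all genes tested. Lgals3bp averaged 5.56 ± 0.436 CPM in ID8 controls and 392 ± 23.5 CPM in HM-1 controls (SD, n = 3 each), a log2 fold change of -6.18 ± 0.11 (edgeR adjusted p = 2.24e-08). Usp18 averaged 0.358 ± 0.0912 CPM in ID8 controls and 7.46 ± 0.460 CPM in HM-1 controls, a log2 fold change of -4.41 ± 0.20 (edgeR adjusted p = 6.67e-07). Ifih1 went the other way, with 862 counts over ID8 controls and 1 over HM-1 controls, 678 times more (121 to 26808). HM-1 cells thus held RNA of the sensor RIG-I but close to none of MDA5, while ID8 cells held both.

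Higher in ID8 controls were also Oasl2, at 10.7 ± 0.564 CPM against 0.8 ± 0.164 CPM in HM-1 controls, Ifit2, at 22.4 ± 1.61 CPM against 3.38 ± 0.763 CPM in HM-1 controls, and Gbp2, at 5.48 ± 0.331 CPM against 0.788 ± 0.0716 CPM in HM-1 controls. Their log2 fold changes were 3.68 ± 0.17, 2.67 ± 0.16 and 2.76 ± 0.16 (edgeR adjusted p = 6.92e-07, 2.77e-06 and 2.59e-06). Of the transcription factors, Stat2, Irf1 and Irf9 were higher in ID8 controls, at 1.83 ± 0.11, 1.10 ± 0.09 and 0.42 ± 0.12 on the log2 scale, and Irf7 was lower at -0.58 ± 0.21 (edgeR adjusted p = 0.0464), a call that DESeq2 did not make and that was lost without HM-1 control library 2 or 3 or ID8 control library 2 or 3. The Irf9 call was lost without HM-1 control library 2 or ID8 control library 1. Dhx58 was lower at -1.64 ± 0.33 (edgeR adjusted p = 0.00349) and Ccl5 at -1.49 ± 0.29 (adjusted p = 0.00294), while Gbp3 was higher at 1.75 ± 0.28 (adjusted p = 0.00089). Of the 4 immunoproteasome genes tested edgeR called 0, with 0 at an unadjusted p under 0.05 and 0 by DESeq2. Psmb8, too low to test, had 27 counts over ID8 controls and 1 over HM-1 controls. That is 21.2 times more per library size (95% interval from counting alone 3.50 to 869). Without HM-1 control library 1, edgeR called 15 of 31 genes higher and 11 lower, and limma voom over all libraries likewise 15 and 11, with Psmb10 then called higher at 0.77 and 0.75 on the log2 scale. Of all genes, 37.4% were called higher and 37.9% lower without that library, and 39.7% and 39.8% by limma voom.

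**Figure D5:**
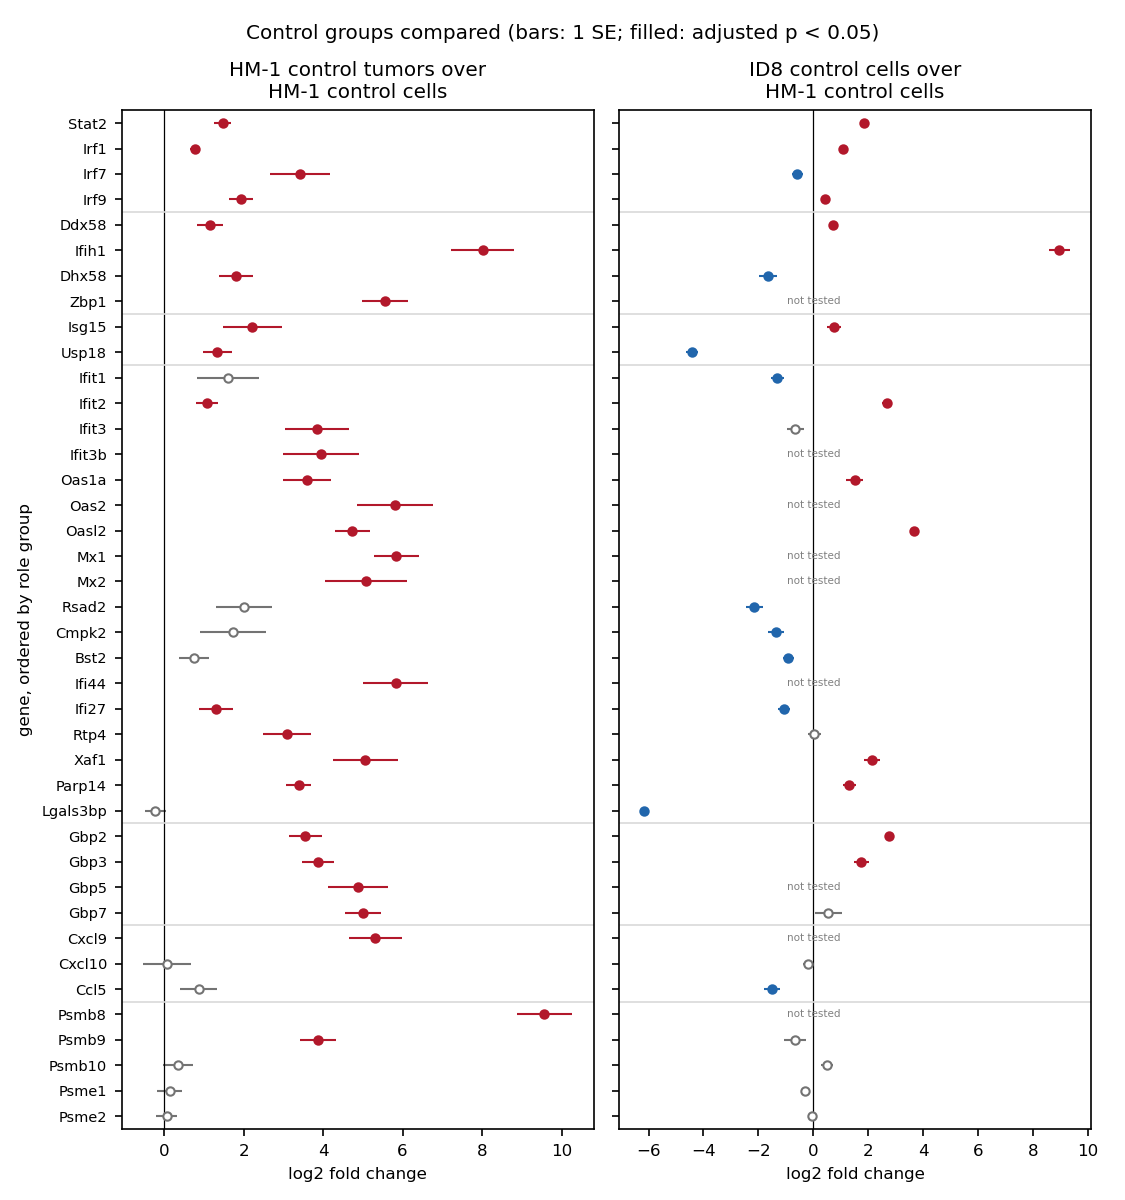
Log2 fold change of each gene (vertical axis, ordered by role) in HM-1 control tumors over HM-1 control cells and in ID8 control cells over HM-1 control cells. Points are edgeR estimates with bars of 1 SE, filled where the adjusted p was under 0.05, with 30 filled points right of 0 for tumors, and 13 right and 10 left of 0 for ID8 cells.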

How the data were processed

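Deposited were raw counts of reads per gene for 18 libraries of mouse RNA, 3 in each of 6 groups, in 1 table of 54752 genes. Per the submitters' processing notes the authors used Trim Galore, STAR and HTSeq with GRCm38 or mm10, and per the series' design text they tested 3 libraries against 3 with DESeq2. Versions, strand setting and library kit remain not given in the sources used here. Groups were taken from the titles. The 40 genes and the pathway and marker lists were chosen with earlier results of these data known.

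From the counts, edgeR 4.0.16 in R 4.3.3 fitted each of 5 pairwise and 2 interaction comparisons over all genes left by filterByExpr, with TMM scaling, the robust quasi-likelihood test and Benjamini-Hochberg adjustment at 0.05. Errors of log2 fold changes are SE. CPM used library totals of 17349082 to 30959773, and CPM per kb the exon length of GENCODE M21. Where a group had 3 counts or fewer, ratios of summed counts were given with exact 95% intervals, which cover counting error only, and a count of 0 was set to 3. Named with values per library were Irf7, Irf1, Isg15, Cxcl9, Cxcl10, Psmb8, Psmb9 and Stat2, and up to 3 called genes of largest change per role and comparison. Other genes named were chosen after their values were seen. Alternatives were DESeq2 1.42.0, limma 3.58.1 voom with quality weights, other scaling, no filter, a replicate block, all 18 libraries in 1 fit, and leaving out each library. The fits were tested on simulated data. Promoter windows of 300 bases from RefSeq for GRCm38.p6 were searched for motifs, and 50-base stretches of transcripts for copies in other genes.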

Additional observations from a re-analysis of the deposited data

Results flagged for a closer look

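For 19 of the 30 genes tested, the effect of the Cd276KO label differed between ID8 and HM-1 cells by edgeR's interaction test. The differences, ID8 minus HM-1 on the log2 scale, were -4.78 for Lgals3bp, -4.72 for Ifit1, -4.41 for Gbp2, -3.42 for Rtp4, -2.94 for Oasl2 and -2.94 for Usp18. They were -2.91 for Ifit3, -2.89 for Psmb9, -2.76 for Parp14, -2.62 for Irf7, -2.31 for Xaf1 and -2.15 for Cxcl10. Smaller differences were -1.80 for Dhx58, -1.77 for Ifi27, -1.66 for Ifit2, -1.33 for Isg15, -0.48 for Stat2 and -0.31 for Irf1, and Psme1 differed in the positive direction by 0.60. Usp18, Ifit3 and Psmb9 had 2, 3 and 2 counts over the ID8 libraries labelled Cd276KO. The call for Irf1 was lost without HM-1 control library 2 or 3, HM-1 Cd276KO library 2, ID8 control library 3 or library 1 of ID8 cells labelled Cd276KO. That for Stat2 was lost without HM-1 Cd276KO library 1, ID8 control library 2 or library 3 of ID8 cells labelled Cd276KO. That for Psmb9 was lost without library 2 of ID8 cells labelled Cd276KO.

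In HM-1, the Cd276KO effect differed between tumors and cells for 3 of 40 genes by the same test, by -3.34 for Cxcl10, -2.50 for Gbp2 and -2.25 for Oasl2 on the log2 scale, tumors minus cells. All 3 calls held without control tumor 3, where Usp18 was also called, higher by 1.43, and none of the 3 held without HM-1 control cell library 1.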

How the results depend on the processing

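Single-gene results and the median of each comparison were recomputed under the alternatives. Of these, 1164 kept direction and call, or for a median stayed within the spread between libraries. Single-gene results lost the call in 127 cases, gained it in 12 and reversed in 14, while medians moved beyond that spread in 13. Counts of genes called higher or lower stayed within a factor of 1.5 in 163 cases and moved further in 43. Estimates near 0 reversed. In HM-1 cells Stat2 was -0.00336 with upper-quartile scaling and -0.0418 with limma voom, Isg15 was -0.0386 with upper-quartile scaling and -0.00984 with all 18 libraries in 1 fit, and Cxcl9 in tumors was 0.21 with limma voom. With 1 library left out at a time, Stat2 ran between -0.0494 and 0.13, Irf7 between -0.00462 and 0.29 and Isg15 between -0.12 and 0.31 in HM-1 cells, and Cxcl9 between -1.95 and 0.14 in tumors. In HM-1 cells 8 genes were called higher by limma voom, where 29.4% of all genes were. With 1 library left out 2 to 7 were higher, where 4.98 to 28.6% of all genes were. In the same fits 2 to 8 were lower, where 8.57 to 30.4% of all genes were. In tumors 16 were called lower by DESeq2, 12 by limma voom and 27 with all 18 libraries in 1 fit. Of all genes, 8.85%, 11.3% and 13% were lower in these fits. For limma voom 1 was higher, where 9.4% of all genes were. With 1 library left out, 0 to 4 were called lower and 0 to 2 higher, where 0 to 5.87% and 0 to 4.82% of all genes were. Control tumors over control cells had 1 gene called lower by limma voom, where 29.5% of all genes were. With 1 library left out 0 to 1 were lower, where 10.1 to 18.4% of all genes were. In the difference between lines 2 were higher by limma voom, 2 without the filter and 0 with all 18 libraries. Of all genes, 28.1%, 8.57% and 12.2% were higher in these fits. With 1 library left out 1 to 2 were higher, where 16.4 to 24% of all genes were. In the difference between tumors and cells 2 were higher and 7 lower by limma voom, where 10.7% and 8.92% of all genes were. With 1 library left out 0 to 1 were higher and 0 to 3 lower, where 0.957 to 3.29% and 0.436 to 2.4% of all genes were. The causes were not tested. Replicate numbers gave no clear pairing of the samples in HM-1 cells or tumors, and a weak pairing in ID8 cells. Same-numbered deviations correlated at 0.0113, -0.0177 and 0.0166 in HM-1 cells, at 0.15, 0.0369 and 0.149 in ID8 cells, and at -0.602, -0.0156 and -0.0958 in tumors, and each ID8 library correlated best with its own number. A replicate block gave 2 higher in HM-1 cells, 0 lower in tumors, 2 higher in the difference between lines and 1 lower in that between tumors and cells. Of all genes, 8.08%, 0%, 19% and 0.717% were called in these directions. In ID8 cells all 24 calls held with the block, where 32.9% of all genes were called lower and 31.5% higher. Low counts left 15 genes untested in HM-1 cells and 14 in ID8 cells.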

Other observations

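Of 97 further pathway genes 83 were tested between HM-1 control tumors and HM-1 control cells. Of these edgeR called 37 higher and 10 lower, where 25.3% of all genes were called higher and 16.6% lower. Genes that passed the filter through tumors alone, such as Gbp4 with 3 counts over control cells, could not have been called lower. The 37 held 25 of 39 further interferon-stimulated genes and 5 of 10 receptor and kinase genes, with 0 lower in either list, 5 of 13 upstream adaptors, with 2 lower, and 2 of 6 feedback inhibitors. Irf8, a transcription factor of myeloid cells, averaged 48.9 ± 2.66 CPM in control tumors and 5.19 ± 0.669 CPM in control cells (SD, n = 3 each), a log2 fold change of 3.09 ± 0.16 with an edgeR adjusted p of 7.4e-05. Of 15 constitutive proteasome genes 8 were called lower and 0 higher, at a median of -0.64 on the log2 scale (11 lower without control tumor 3), and at an unadjusted p under 0.05 there were 12 in all.

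ID8 and HM-1 control cells differed in single pathway genes as well. Ly6e averaged 20.4 ± 0.721 CPM in ID8 controls and 1600 ± 280 CPM in HM-1 controls, and Irf8 had 0 counts in ID8 controls and 347 in HM-1 controls, at least 147-fold lower with 0 set to 3 counts over the group.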
